A study of Mus musculus with 6 samples.

Results

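The cadherins and protocadherins of pancreatic islets were compared between Nkx6-1 mutant mice and control mice. Members were the genes whose name in the array files is Cdh with a number, Pcdh with any ending, Celsr1 to Celsr3, Fat1 to Fat4, Dsc1 to Dsc3, or Dsg1 to Dsg4. The rule found 89 of 31829 gene names, measured by 114 of 39429 probes. RNA of 6 islet samples, 3 mutant and 3 control biological replicates, was hybridised to Agilent mouse arrays in 1 colour. Mutant islets came from Nkx6.1fl/-;Pdx1-CreERTM males, and control islets from Nkx6.1fl/+;Pdx1-CreERTM male littermates, each sample being a pool of 2 pancreata. Both groups were 6 weeks old, carried the Cre transgene, descended from crosses of FVB/N, C57Bl/6J and Cd1 stock, and had been injected 4 times with 2 mg of tamoxifen per 25 g of body weight from the age of 4 weeks.

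Several features limit the groups as a model. The mutants carried a null Nkx6-1 allele in all their cells before tamoxifen, while the controls carried a wild-type allele that Cre cannot remove, so the germline null allele and the induced deletion cannot be told apart. Pdx1-CreERTM acts where Pdx1 is expressed, which in the adult islet is mainly the beta cell, whereas the RNA came from whole islets. In such bulk samples fewer cells of a type and less RNA per cell cannot be told apart.

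Cadherins are calcium-dependent adhesion proteins that span the membrane and bind, mostly to their own kind, through repeated extracellular domains. Classical cadherins hold the catenins of adherens junctions at their tails, desmosomal cadherins hold plakoglobin and plakophilins, and the giant Fat and Celsr proteins take part in planar cell polarity. Protocadherins lack the catenin-binding tail, and the clustered ones lie in alpha, beta and gamma arrays within 1 locus, where neurons switch on different promoters in different cells. In islets E-cadherin (Cdh1) and N-cadherin (Cdh2) join endocrine cells to each other. Cdh23 is best known from the inner ear, where it forms the upper part of the tip link of hair cells and binds Pcdh15, which forms the lower part.

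Cdh23 was the member that passed the test, and its array probe is shown because every Cdh23 value rests on it. The probe is listed at chr10:59768489-59768716 of mm9 on the minus strand. That interval spans 228 bases for a probe of 60 bases, so by the listed coordinates the probe bridges an intron.
Cdh23 probe: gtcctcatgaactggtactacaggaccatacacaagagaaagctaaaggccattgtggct
The stretch of 250 bases upstream of the Cdh23 start is shown because homeodomain proteins, the class to which Nkx6-1 belongs, commonly recognise a TAAT core. It comes from RefSeq at chr10:60696491-60696740 of GRCm38.p6, minus strand, with TAAT in capitals (ATTA where it lies on the other strand).
Cdh23 upstream window: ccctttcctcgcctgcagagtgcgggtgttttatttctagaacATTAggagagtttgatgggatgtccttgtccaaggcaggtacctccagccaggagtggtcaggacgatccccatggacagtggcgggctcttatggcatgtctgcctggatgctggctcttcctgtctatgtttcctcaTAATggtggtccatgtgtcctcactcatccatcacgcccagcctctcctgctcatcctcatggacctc
The window holds 2 matches, starting at -207 and -68 from the listed start of the gene. Of 32851 windows of the same length from 27025 genes, 54.9% hold at least 1 match on either strand, so a match in this window is common. A match describes the letters and was not set against binding data. No upstream window was at hand for most members, since 30 of 89 matched the table, and the motif was not counted over the family.

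Signals below are given as normalized log2 signal, the log2 of the background-corrected spot intensity minus the 75th percentile of the array, so that 0 is that percentile. A probe was tested if all arrays of the mutants, or all those of the controls, read well above background by the scanner software's call. On mutant arrays A, B and C 66.8%, 63.9% and 74.4% of all probes were well above background, against 73.4% to 76.3% on the control arrays. The processed signal reached down to 7.98 on mutant A and 6.85 on mutant B, while on the remaining arrays it reached 2.31 to 3.31, so dim probes had less room to read low on mutants A and B. Slide 1 held mutant B, mutant C and control A, and slide 2 held mutant A, control B and control C. Nkx6-1 itself had 4.38, 4.13 and 4.52 on mutant arrays, below each of 4.87, 4.92 and 4.72 on control arrays. Its difference of -0.49 (SE 0.14) did not pass the test (adjusted p = 0.126), and the labels do not state whether its probe lies in the deleted part. The hormone genes Ins1, Ins2, Gcg, Sst and Ppy lay at or above the 99.9th percentile of signal.

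Of the 89 members, 69 were tested, 57 of them above background on all 6 arrays. Another 12 passed the filter through 1 group alone, 11 through the control arrays and 1, Cdh23, through the mutant arrays. Of all 22775 genes tested, 19770 were above background on all 6 arrays. The lowest signal called well above background was -5.84 on mutant A and -5.68 on mutant B, against -7.05 on mutant C. On the control arrays it was -7.00 to -7.21, so the call reached less far down on mutants A and B. Of the 20 members not tested, 13 were above background on 0 of the 6 arrays. The filter favours the direction of a member that passes through 1 group alone, and 9 of the 11 that passed through the control arrays had negative differences. Every count over tested members below includes them unless it names the 57.

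In mutant islets 1 member was higher and 0 were lower at a Benjamini-Hochberg adjusted p under 0.05 (limma, fitted over 22775 genes). Among all genes tested 1.38% were higher and 1.19% lower by that rule, 2.58% together, so the family's count lay near the background. That member was Cdh23, which entered the test through the mutant arrays alone. Of the 57 members above background on all 6 arrays 0 passed (limma), where 2.54% of all such genes did, with 10 higher and 5 lower at an unadjusted p under 0.05. At an unadjusted p under 0.05 the counts were 11 higher and 7 lower, where 8.71% of all genes were higher and 11.5% lower, 20.2% together. The arrays of the groups did not overlap in 19 members, 13 of them higher and 6 lower in mutants, against 26.4% of all genes, 11.7% higher and 14.6% lower. The difference was positive in 37 members and negative in 32, against 45.6% positive and 54.4% negative among all genes. Differences of at least 1 in size were found in 6 members, 2 positive and 4 negative, against 4.81% of all genes. The median difference of tested members was 0.031, beside -0.033 over all genes. Among the 57 members above background everywhere it was 0.19, beside -0.0055 over all genes of that kind.

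**Figure D1:**
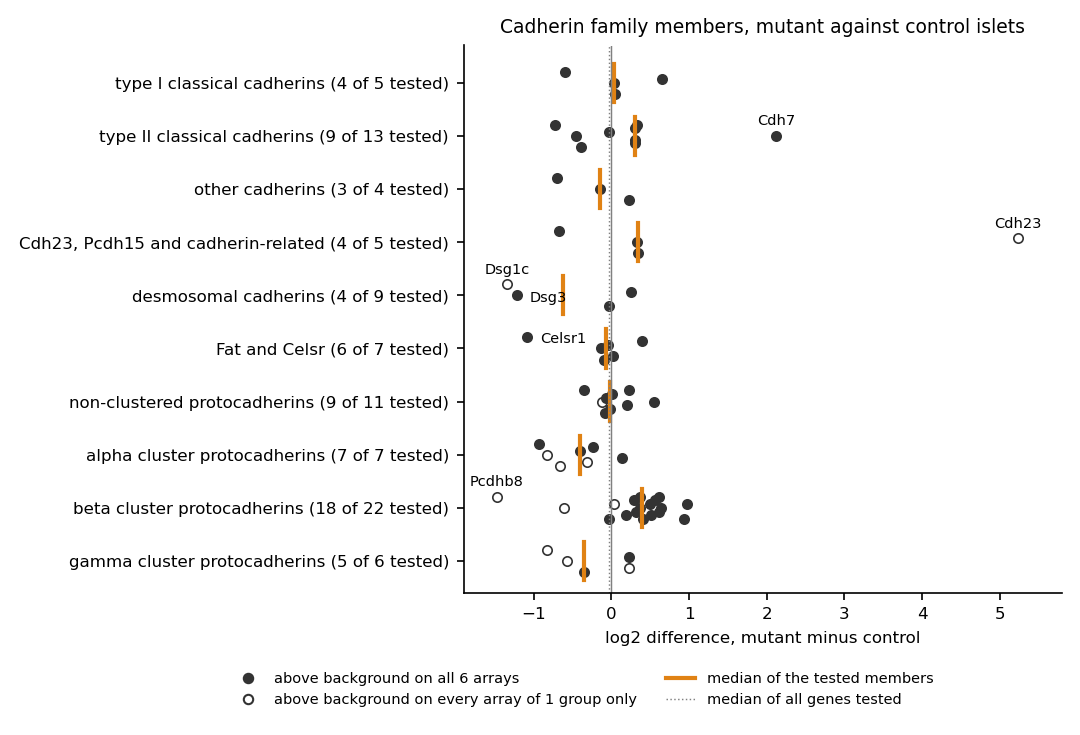
Log2 difference of each tested member, mutant minus control, by subfamily, with the number tested of all members beside each name and names printed for differences of at least 1 in size. Filled points were above background on all 6 arrays, open points on every array of 1 group only, orange bars are medians of the tested members and the dotted line is the median of all genes tested. Cdh23 stands at 5.24 and Cdh7 at 2.12, and most points lie within 1 of zero.

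Cdh23 rose in mutant islets. Its normalized log2 signal was -4.46, -3.24 and -3.34 on mutant arrays A, B and C, against -8.72, -9.03 and -9.003 on control arrays A, B and C. All 3 mutant arrays lay above the controls. The difference was 5.24 (SE 0.34, adjusted p = 0.00602), with means of -3.68 ± 0.68 in mutants and -8.92 ± 0.17 in controls (SD, n = 3 each). The probe was well above background on all 3 mutant arrays and on none of the control arrays, so the control level is only a bound. The small spread of the controls is a spread of readings at background, and the difference, its SE and its p take those readings at face value. The probe entered the test only through the group in which it was high, which favours a positive difference. With the dimmest signal that was still well above background on each control array in place of its own, Cdh23 was 10.9-fold higher in mutant islets. That is an approximate bound under the scanner software's background correction, since a probe not called well above background can read higher than that signal.

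The spot intensities behind these values were low. Before background subtraction the mean spot intensity of Cdh23 was 147, 217 and 186 on mutant arrays, against 53.1, 55.1 and 49.98 on control arrays. Local background medians were 48.5, 31.5 and 27.5 on the mutant arrays, against 31.0, 51.0 and 39.5 on the control arrays. After the background correction of the scanner software 104, 186 and 153 remained on mutant arrays, against 4.31, 4.51 and 4.82 on control arrays. The size on the log2 scale therefore depends on how the background is taken off. With normexp correction, which models background and keeps an offset, the difference was 1.69 (adjusted p = 0.0316), and in the deposited table of processed values it was 1.86 (adjusted p = 0.0185).

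With slide as a block the Cdh23 difference was 4.99 (adjusted p = 0.0121). Taken inside each slide it was 5.43 on slide 1 and 4.55 on slide 2, so both slides showed it. Over 19 other settings it ran between 1.59 and 5.63, and 15 of them called it. Of the 4 that did not, leaving out control array B gave 5.18 (adjusted p = 0.0571), and raising all values to a common floor gave 2.00 (adjusted p = 0.0625). Leaving out mutant arrays A and B gave 5.57 (adjusted p = 0.0562), where mutant C stood alone and was assumed to vary as the controls did, and the fourth took the unpaired replicate letters as a block.

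**Figure D2:**
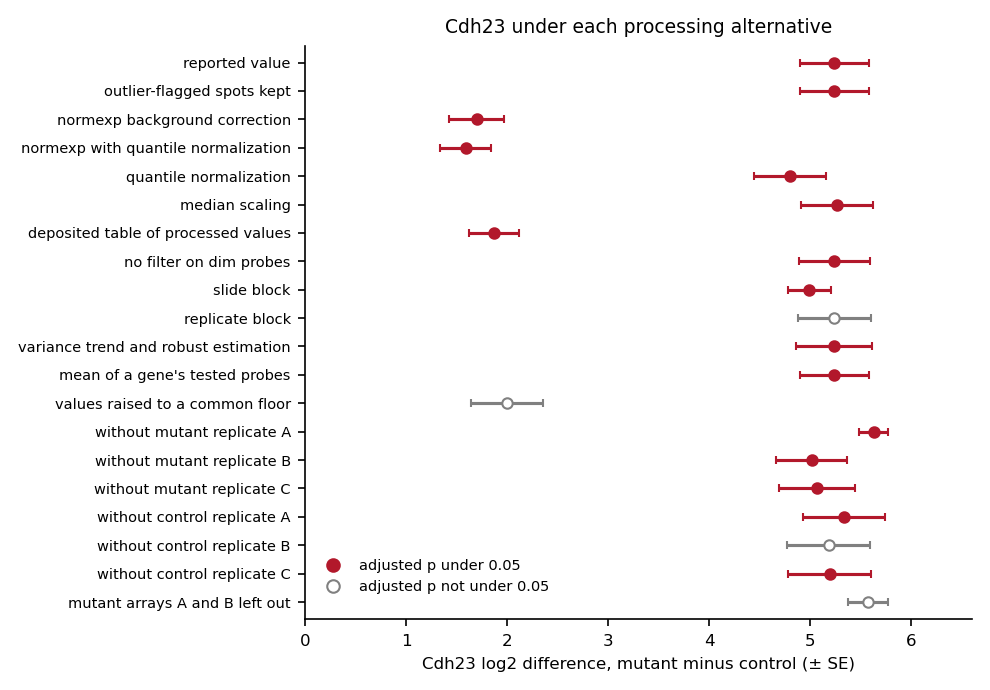
Cdh23 log2 difference, mutant minus control, with its standard error, as reported and under each other processing setting. Red points passed an adjusted p of 0.05 and open grey points did not. The difference is positive in each, and the settings that treat background otherwise lie between 1.59 and 2.00 while the rest lie between 4.799 and 5.63.

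Genes beside Cdh23 on chromosome 10 did not pass the test. In the order of the RefSeq gene table the nearest neighbours on the array are Spock2, Chst3 and Psap before it, and Vsir (4632428N05Rik in the files) and Slc29a3 after it. Their differences were 0.11, 0.11, -0.27, 0.11 and 0.16 in that order, and adjusted p-values ran between 0.23 and 0.92. Psap, which encodes the precursor of the saposins of lysosomes, had 4.44, 4.31 and 4.38 on mutant arrays, against 4.53, 4.71 and 4.70 on control arrays.

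Cell type markers were set beside Cdh23 array by array. The mean of 7 beta cell markers, relative to the control mean, was -0.49, -0.44 and -0.47 on mutant arrays, against 0.15, -0.06 and -0.09 on control arrays. The mean of 3 delta cell markers was 0.52, 0.91 and 0.97 on mutant arrays, against 0.48, 0.12 and -0.60 on control arrays. Both lists separated the groups, and all of their members were well above background on all 6 arrays. The beta markers went both ways, with 3 positive differences, among them Ins1 at 0.25 and Ins2 at 0.24, and 4 negative, the lowest at -2.01. All 3 delta marker differences were positive. Their summed levels, on the log2 scale, overlapped, at 9.31 to 10.1 in mutants and 9.42 to 9.94 in controls for beta markers, and at 8.34 to 8.87 in mutants and 7.72 to 8.53 in controls for delta markers. The 6 alpha cell markers all had positive differences. Their mean was 0.30, 0.56 and 0.58 on mutant arrays, against 0.30, 0.02 and -0.32 on control arrays. The mean of 8 duct markers was -0.22, 0.18 and 0.94 on mutant arrays, against 0.19, -0.21 and 0.02 on control arrays. The mean of 17 acinar markers was -0.80, 0.93 and 1.92 on mutant arrays, against -0.25, -0.08 and 0.34 on control arrays, so the acinar markers varied more among the mutants than among the controls. Their summed level was 9.83 to 12.1 in mutants and 10.4 to 10.8 in controls, on the log2 scale. The part of these markers in the Cdh23 result was not tested.

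Pcdh15, the partner of Cdh23 in the tip link, did not pass. Its representative probe had -0.20, -0.15 and 0.01 on mutant arrays, all above -0.78, -0.25 and -0.37 on control arrays. The difference was 0.35 (SE 0.16, adjusted p = 0.300). The other 4 tested Pcdh15 probes gave differences of 0.26, 0.47, 0.12 and -0.30, so the probes of the gene did not share a direction.

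Of 17 further genes of the tip link complex and of Usher syndrome on the array, 14 were tested and 0 passed (limma), with 3 higher and 2 lower at an unadjusted p under 0.05. Their median difference was 0.14, with 9 positive and 5 negative. Tmie, a subunit of the transduction channel of hair cells, had -2.70, -1.48 and -1.55 on mutant arrays, all above -3.17, -3.005 and -3.92 on control arrays. Its difference was 1.46 (SE 0.40, adjusted p = 0.125). Anks4b, a scaffold of the intestinal brush border that binds the harmonin complex, had the largest negative difference, -0.48.

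Cadherin-related members with roles in photoreceptors and brush borders had differences of opposite sign. Pcdh21 (now Cdhr1), the photoreceptor cadherin, had 1.59, 1.53 and 1.05 on mutant arrays, all below 2.02, 2.06 and 2.12 on control arrays. The difference was -0.68 (SE 0.17, adjusted p = 0.0967), and inside the slides it was -0.73 on slide 1 and -0.50 on slide 2. Pcdh24 (now Cdhr2), which links microvilli of the brush border, had 1.68, 1.47 and 1.63 on mutant arrays, all above 1.23, 1.25 and 1.29 on control arrays. Its difference was 0.34 (SE 0.10, adjusted p = 0.148). Neither passed.

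Among the type I classical cadherins, which build most adherens junctions, 4 of 5 were tested and 0 passed (limma). At an unadjusted p under 0.05 the counts were 1 higher and 0 lower, and the median difference was 0.040. Cdh1, E-cadherin, had 2.72, 2.69 and 3.03 on mutant arrays, among 2.37, 2.83 and 3.104 on control arrays. Its difference was 0.05, with a 95% interval of -0.48 to 0.57, so a difference anywhere in that range is compatible with the data. Cdh2, N-cadherin, had 2.83, 3.08 and 2.65 on mutant arrays, among 3.06, 2.69 and 2.71 on control arrays. Its difference was 0.04, with a 95% interval of -0.37 to 0.44, and its second probe gave 0.15.

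Cdh4, R-cadherin, which is known from retina, brain and developing endocrine pancreas, was higher on each mutant array without passing the test. It had 0.14, 0.34 and 0.05 on mutant arrays, against -0.20, -0.72 and -0.49 on control arrays. The difference was 0.65 (SE 0.17, adjusted p = 0.105), and inside the slides it was 0.40 on slide 1 and 0.75 on slide 2. The other Cdh4 probes gave 0.69 and 0.79, and in each of the 3 probes the arrays of the groups did not overlap. The probes share their RNA samples, so they are no replicates. Cdh15, M-cadherin of muscle, had a difference of -0.60 with overlapping arrays, and Cdh3, P-cadherin, was well above background on 0 mutant arrays and on 2 control arrays and was not tested.

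The type II classical cadherins, which sort neurons and mesenchymal cells in development, had 9 of 13 members tested and 0 called (limma). At an unadjusted p under 0.05 the counts were 2 higher and 2 lower, and the median difference was 0.30, with 5 positive and 4 negative. Cdh7 had -1.11, -0.76 and -0.67 on mutant arrays, against -3.79, -1.87 and -3.26 on control arrays. The mutant arrays were close together and lay above all controls, and the controls varied more. The difference was 2.12 (SE 0.49, adjusted p = 0.0857), and inside the slides it was 3.07 on slide 1 and 1.45 on slide 2. Over the other settings its adjusted p went no lower than 0.0528, so no setting called it at 0.05.

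Other type II members had smaller differences. Cdh8, a brain cadherin, had -0.55, -0.45 and -0.87 on mutant arrays, all below -0.18, 0.36 and 0.13 on control arrays (difference -0.73, SE 0.18, adjusted p = 0.103). These values rest on 1 probe, as the other Cdh8 probe was well above background on 0 mutant and 0 control arrays and was not tested. Cdh22 had 1.195, 0.82 and 0.98 on mutant arrays, all below 1.36, 1.33 and 1.49 on control arrays (difference -0.39, SE 0.13, adjusted p = 0.171). Cdh18 had 4.89, 4.91 and 4.94 on mutant arrays, within 4.85 to 4.995 on control arrays, and its difference of -0.03 had a 95% interval of -0.26 to 0.20. These values are from 1 Cdh18 probe, and its other probe, listed elsewhere in the gene, was well above background on 0 mutant and 2 control arrays and was not tested. Whether the bright probe reports Cdh18 is therefore uncertain. Cdh12 and Cdh9 had small positive differences, 0.31 and 0.30, without overlap, and Cdh6 had -0.45.

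Members that mark other cells of an islet preparation were set beside markers of those cells. Cdh5, VE-cadherin of endothelial junctions, had -0.68, -0.27 and -0.53 on mutant arrays, overlapping -0.33, -1.05 and -1.03 on control arrays (difference 0.31, SE 0.23, adjusted p = 0.503). The mean of 9 other endothelial markers relative to the control mean was 0.13, 0.04 and 0.10 on mutant arrays, against 0.34, -0.18 and -0.16 on control arrays. Control A was the highest control in both. Cdh11, a cadherin of mesenchymal cells, had -3.48, -3.95 and -4.05 on mutant arrays, overlapping -3.95, -4.47 and -4.06 on control arrays (difference 0.33, SE 0.21, adjusted p = 0.425). The other Cdh11 probe was well above background on 0 mutant and 0 control arrays and was not tested. The 10 mesenchymal markers averaged 0.51, 0.50 and 0.27 on mutant arrays, against 0.74, -0.25 and -0.49 on control arrays. The part of these cells in either result was not tested.

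The cadherins grouped outside the classical types had 3 of 4 members tested and 0 called (limma), with 0 at an unadjusted p under 0.05. Cdh13, T-cadherin, which is anchored by a lipid and binds adiponectin, had -2.90, -3.03 and -3.44 on mutant arrays, overlapping -2.71, -3.22 and -3.01 on control arrays (difference -0.14, SE 0.20). Cdh16, known from kidney tubules and thyroid, had -4.36, -5.45 and -5.17 on mutant arrays, against -3.81, -4.39 and -4.67 on control arrays (difference -0.70, SE 0.35, adjusted p = 0.321). Cdh17, the liver and intestine cadherin, was above background on 0 of the 6 arrays.

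Desmosomal cadherins had 4 of 9 members tested and 0 called (limma), with 0 at an unadjusted p under 0.05. Dsg2 and Dsc2, the pair found in simple epithelia, had small differences with their main probes. The main Dsg2 probe had -1.94, -2.13 and -1.98 on mutant arrays, among -1.87, -2.12 and -1.95 on control arrays, a difference of -0.03 with a 95% interval of -0.32 to 0.25. The other Dsg2 probe had a difference of 1.19 (SE 0.61, adjusted p = 0.337 with every probe fitted) that came from mutants B and C, at -1.86 and -1.71, while mutant A at -3.80 lay among the controls, so the probes disagreed. Dsc2 had -1.75, -1.41 and -1.41 on mutant arrays, against -1.69, -1.84 and -1.82 on control arrays (difference 0.26, SE 0.13, adjusted p = 0.338).

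The desmogleins of stratified epithelia followed the slides. Dsg3 had -1.45, -3.10 and -3.14 on mutant arrays, against -2.64, -0.73 and -0.68 on control arrays. All 3 arrays of slide 1 (mutants B and C, control A) were lower than all 3 of slide 2. The difference was -1.22 (SE 0.70, adjusted p = 0.384), and -0.62 with slide as a block (adjusted p = 0.0522). The other Dsg3 probe was well above background on 0 mutant and 0 control arrays and was not tested. Dsg1c had -5.91, -7.25 and -7.28 on mutant arrays, where it was not well above background, against -6.71, -5.14 and -4.57 on control arrays. Mutant A read higher than control A, where the probe was well above background. The lowest signal so called was -5.84 on mutant A, against -7.00 on control A. The Dsg1c difference of -1.34 did not pass (adjusted p = 0.308), and -0.80 remained with slide as a block (adjusted p = 0.121).

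The plaque that desmosomal cadherins anchor to held a called gene. Pkp1, plakophilin 1, which strengthens desmosomes and is best known from epidermis, rose in mutant islets. It had -3.93, -4.47 and -4.57 on mutant arrays, against -8.44, -6.86 and -7.25 on control arrays, where it was not well above background. Like Cdh23 it entered the test through the mutant arrays alone, which favours a positive difference. The difference was 3.20 (SE 0.43, adjusted p = 0.0281). Pkp1 was 6.51-fold higher with each control array's lowest signal well above background in place of a lower reading. Control B kept its own reading of -6.86, which lay above that array's lowest such signal of -7.16, so the fold is an approximate bound. The size again depended on the background, with 1.16 after normexp correction, 1.04 after normexp and quantile normalization, 1.29 in the deposited table and 1.35 with all values raised to a common floor. Within slide 1 it was 3.92 and within slide 2 it was 3.13. The call was lost in each fit that left out a mutant array, control B or control C, and 12 of 19 other settings kept it. Dsp, desmoplakin, had 0.64, 0.61 and 0.71 on mutant arrays, below 1.00, 1.34 and 1.40 on control arrays, and was not called (difference -0.59, SE 0.14, adjusted p = 0.0871). Of 9 plaque genes tested, 1 rose, Pkp1, and 0 fell, with a median difference of -0.09.

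**Figure D3:**
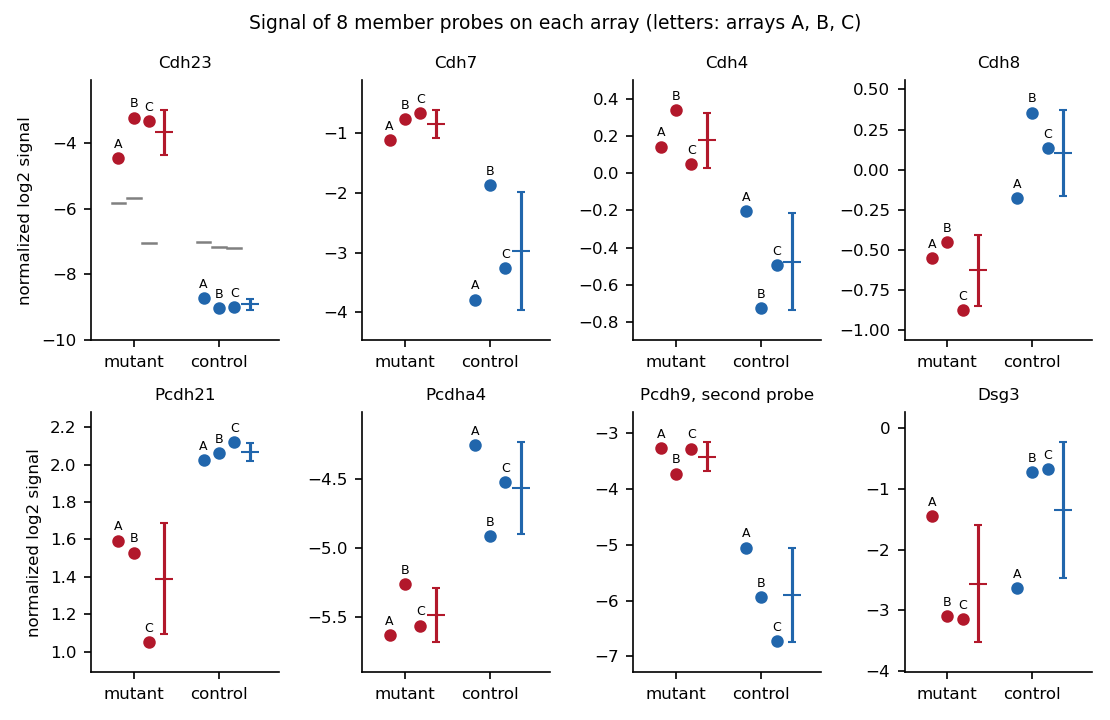
Normalized log2 signal of 8 member probes on each array, mutants at the left and controls at the right, with letters for arrays and bars for mean ± SD (n = 3). Grey ticks in the Cdh23 panel are the lowest signals well above background on each array. Cdh23 lies above these ticks on the mutant arrays and below them on the control arrays, Cdh4, Cdh7, Cdh8, Pcdh21, Pcdha4 and the second Pcdh9 probe do not overlap between groups, and Dsg3 separates by slide.

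The Fat and Celsr proteins, large cadherins of planar polarity and growth control, had 6 of 7 members tested and 0 called (limma). At an unadjusted p under 0.05 the counts were 1 higher and 0 lower, and the median difference was -0.071. Fat1 had 2.07, 2.09 and 2.31 on mutant arrays, all above 1.89, 1.73 and 1.66 on control arrays (difference 0.39, SE 0.12, adjusted p = 0.147). Celsr3, which guides axon tracts and has been studied in islet differentiation, had 2.42, 2.05 and 2.39 on mutant arrays, among 2.19, 2.50 and 2.31 on control arrays (difference -0.04, 95% interval -0.41 to 0.32).

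Celsr1 was uneven among the mutants. It had -2.13, -1.82 and 0.25 on mutant arrays, against -0.86, 0.09 and 0.31 on control arrays. Mutants A and B lay below all controls and mutant C lay among them, and the difference of -1.08 (SE 0.68) did not pass (adjusted p = 0.422). Among 17 tested partners in planar polarity and Fat signalling 0 passed (limma), with 1 higher and 2 lower at an unadjusted p under 0.05 and a median difference of 0.092. The frizzled receptor Fzd6 had -1.16, -1.10 and -1.15 on mutant arrays, all above -2.18, -1.77 and -1.75 on control arrays (difference 0.76, SE 0.15, adjusted p = 0.0588). The pseudokinase Ptk7 had 2.21, 2.01 and 1.34 on mutant arrays, all below 2.43, 2.99 and 2.86 on control arrays (difference -0.91, SE 0.27, adjusted p = 0.139).

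The non-clustered protocadherins had 9 of 11 members tested, 0 of them called (limma), with 1 higher and 0 lower at an unadjusted p under 0.05 and a median difference of -0.023. Pcdh8, which regulates adhesion at synapses and in somites, had -2.25, -2.08 and -2.52 on mutant arrays, all above -2.78, -2.70 and -3.003 on control arrays (difference 0.54, SE 0.15, adjusted p = 0.129). The probes of Pcdh9 disagreed. Its representative probe had a difference of -0.35 (SE 0.22, adjusted p = 0.418). The second tested probe, at chr14:93413428-93413487 (mm9), had -3.27, -3.72 and -3.28 on mutant arrays, all above -5.05, -5.94 and -6.73 on control arrays. With every probe fitted on its own its difference was 2.48 (SE 0.42, adjusted p = 0.0430), where 2.83% of 28361 probes passed, and with slide as a block its adjusted p was 0.0676. This probe was singled out after its values were seen, and another Pcdh9 probe listed close to it was above background on 0 of the 6 arrays.

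The clustered protocadherins made up 35 of the 89 members, 30 of them tested and 0 called (limma). All lie on chromosome 18, in one locus, so they are no independent sample of the genome. In the alpha cluster 7 of 7 were tested, 1 positive and 6 negative, with a median of -0.40 and with 0 higher and 2 lower at an unadjusted p under 0.05. Only 4 of those 7 were above background on all 6 arrays, with 1 positive, 3 negative and a median of -0.32, and the other 3 passed the filter through the control arrays. The positive member is Pcdhac2, whose tested probe lies beyond every other alpha probe, toward the exons that alpha transcripts share, so its signal cannot be read as Pcdhac2 alone. In the gamma cluster 5 of 6 were tested, with 2 positive and 3 negative, a median of -0.35, and 0 higher and 1 lower at an unadjusted p under 0.05. The 1 lower, Pcdhgb1, and 2 others passed the filter through the control arrays. The other 2, above background on all 6 arrays, were 1 positive and 1 negative, with a median of -0.064.

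The beta cluster, whose genes each hold their whole reading frame in 1 exon, had mostly positive differences. Of 22 members 18 were tested, 15 positive and 3 negative, with a median of 0.39 beside -0.033 over all genes and 4 higher and 1 lower at an unadjusted p under 0.05. Of the 15 above background on all 6 arrays, 14 were positive, where 49.2% of all such genes were, and 3 were higher without overlap between groups, where 13.1% of all such genes were. Whether the clusters differ from each other was not tested. The median of the 18, taken on each array relative to the control mean of each gene, was 0.29, 0.41 and 0.34 on mutant arrays, against 0.03, -0.20 and 0.18 on control arrays. It was 0.32 within slide 1 and 0.35 within slide 2, and 14 of the 18 were positive within each slide. Under the other settings it ran between 0.30 and 0.53. The probes of the 18 genes differ in sequence, with at most 27 and a median of 21 matching bases of 60 over 153 pairs without gaps. They were compared with each other and not with the transcripts of other members, so binding to those transcripts was not tested. No member of the cluster passed, and no test of the cluster as a whole was made.

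Within the beta cluster Pcdhb13, Pcdhb12 and Pcdhb8 had the largest differences. Pcdhb13 had -3.86, -4.33 and -4.47 on mutant arrays, all above -4.69, -5.59 and -5.29 on control arrays (difference 0.97, SE 0.28, adjusted p = 0.128). Pcdhb12 had -3.36, -2.49 and -1.03 on mutant arrays, against -3.34, -3.31 and -3.04 on control arrays, so its difference of 0.94 came from mutants B and C (SE 0.57, adjusted p = 0.405). Those mutants also had the highest means of acinar markers, whose part in the result was not tested. Pcdhb8 had -7.29, -5.75 and -6.89 on mutant arrays, against -4.94, -5.78 and -4.77 on control arrays (difference -1.48, SE 0.46, adjusted p = 0.152), and it was well above background on 1 mutant array.

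Of the alpha and gamma clusters, Pcdha4 and Pcdhga9 are given array by array. Pcdha4 had -5.64, -5.26 and -5.57 on mutant arrays, all below -4.25, -4.92 and -4.52 on control arrays. The difference was -0.93 (SE 0.20, adjusted p = 0.0782), and inside the slides it was -1.16 on slide 1 and -0.92 on slide 2, and it was -0.29 with normexp correction. Pcdhga9 had 4.01, 3.86 and 3.79 on mutant arrays, all above 3.61, 3.63 and 3.75 on control arrays (difference 0.22, SE 0.11, adjusted p = 0.316). Its bright probe lies beyond the probe of Pcdhgc5, the last variable exon of the cluster, and so in the part that gamma transcripts share. Its signal therefore cannot be read as Pcdhga9 alone. The other tested Pcdhga9 probe, also beyond that of Pcdhgc5, gave 0.07 with overlapping arrays (adjusted p = 0.773 in limma with every probe fitted).

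**Figure D4:**
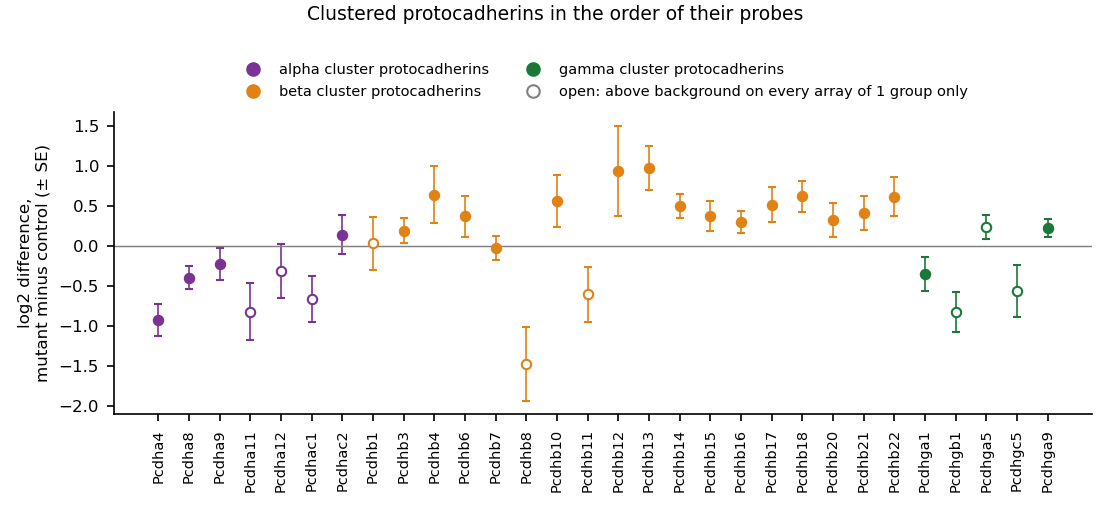
Log2 difference, mutant minus control, with standard error, of the 30 tested clustered protocadherins in the order in which their probes lie along chromosome 18. Alpha members are purple, beta orange and gamma green, and open points were above background on every array of 1 group only. Filled beta points lie above or near zero, with Pcdhb7 at -0.03 the lowest, and alpha points lie below zero except Pcdhac2 at 0.14, whose probe lies beyond the other alpha probes.

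Genes that govern promoter choice and signalling of the clusters, among them Ctcf and the cohesin subunits, showed little. All 13 were tested and 0 passed (limma), also with 0 at an unadjusted p under 0.05, and the median difference was 0.082. The largest were Wiz, a zinc finger protein that binds at Ctcf sites, at 0.28, and the DNA methyltransferase Dnmt3a at -0.24.

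Over all lists of cadherin partners 102 of 109 genes on the array were tested, and 2 rose and 1 fell, close to the 2.58% of all genes. Besides Pkp1, the calsyntenin Clstn3 rose, a synaptic protein with cadherin repeats that the naming rule does not take in. It had 0.91, 0.75 and 0.76 on mutant arrays, all above -0.01, 0.17 and 0.26 on control arrays (difference 0.67, SE 0.12, adjusted p = 0.0477). Gjd2, connexin 36, which couples beta cells electrically, fell. It had 2.36, 2.54 and 2.41 on mutant arrays, all below 3.17, 3.19 and 3.21 on control arrays (difference -0.75, SE 0.10, adjusted p = 0.0270). Both calls were lost in each fit that left out a mutant array, control B or control C, and the Clstn3 call also without control A. Of 20 other settings 10 kept the Clstn3 call and 11 the Gjd2 call.

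The other partner lists held no call. Of 20 adherens junction plaque genes, catenins and nectins among them, 0 passed (limma), with 3 higher and 3 lower at an unadjusted p under 0.05 and a median of 0.011. Nectin genes were at its ends, Pvrl4 with a difference of 0.82 (adjusted p = 0.0742) and Pvrl1 with -0.69 (adjusted p = 0.149). Of 11 genes that shed or cleave cadherins 0 passed (limma), with 2 higher and 0 lower at an unadjusted p under 0.05, and a median of 0.18. The metalloprotease genes Adam15, at 0.59 (adjusted p = 0.0910), and Mmp7, at -0.63 (adjusted p = 0.630), had the largest differences. Of 14 other adhesion and coupling genes of islets, Gjd2 was the only call.

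**Figure D5:**
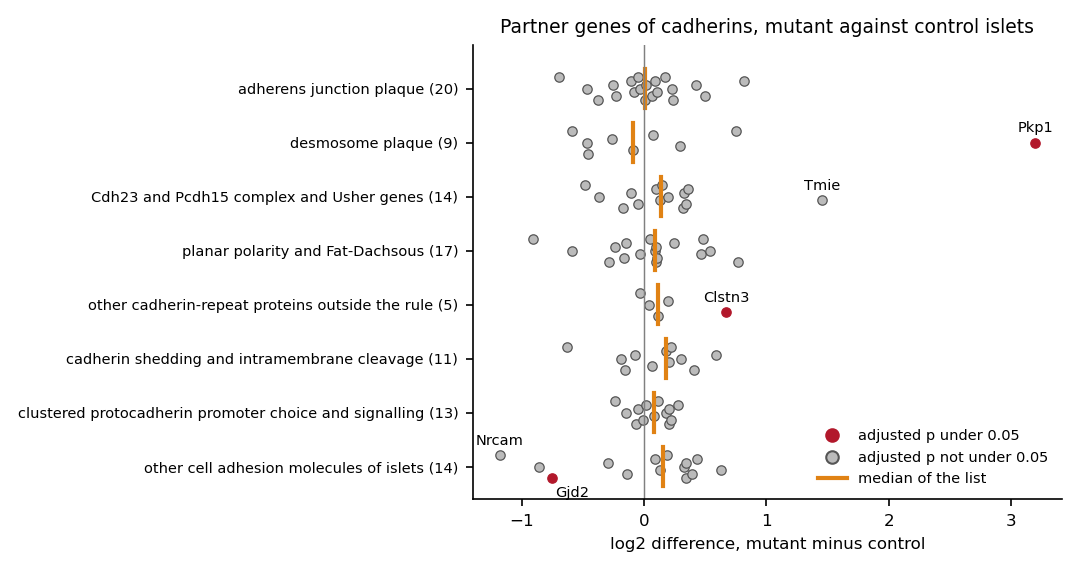
Log2 difference, mutant minus control, of the tested partner genes by list, with the number tested in brackets. Red points passed an adjusted p of 0.05, grey points did not, orange bars are medians, and names are given for called genes and for differences of at least 1 in size. Pkp1 at 3.20 and Clstn3 at 0.67 are the called rises and Gjd2 at -0.75 the called fall.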

How the data were processed

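Per the labels, 150 ng of total RNA per pool was labelled with Cy3. Per the file headers, the deposited intensity values come from Agilent Feature Extraction 10.7.3.1 (version also in the submitters' processing notes), which subtracted background within each array without scaling between arrays. The deposited flags (other values) say, spot by spot, whether the signal was saturated, an outlier or clearly over background. The authors' deposited table of processed intensity values, its scaling not given in the sources used here, had column medians of 272.8, 274.5 and 274.55 for mutants A to C and 270.2, 266.95 and 268.3 for controls A to C, and followed the median spot intensity with no background taken off. It served as an alternative.

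Replicate spots of a probe were averaged as log2 intensities, leaving out outlier spots, and the array's 75th percentile was subtracted. Each gene took the brightest of its tested probes, and 28361 probes of 22775 genes were tested. Groups were compared by limma 3.58.1, run in R 4.3.3 (files read by the data.table package, version 1.17.8; linear model and empirical Bayes, two-sided, Benjamini-Hochberg over all genes). The procedure was tested on simulated data. Differences are mutant minus control. Alternatives changed the background correction, scaling, dim-probe filter, flagged spots, probe choice, blocks, variance model and threshold, or left out arrays. A group never above background gives an approximate bound. It is taken against each array's lowest signal above background, or the gene's own reading where that was higher. Signal over background stands in for depth, and 6 arrays limit the precision. Probe coordinates are the files' (mm9), and 88 of 89 members matched a current symbol.

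Members, lists and rules were chosen with earlier results of these data known. Named are called members, those with a log2 difference of at least 1, the 5 largest rises and falls, the 6 with the brightest probes and 14 fixed members where measured. Up to 3 called genes, or else the 2 largest differences, are named per partner list. Others were added after their values were seen: Cdh3, Cdh6, Cdh8, Cdh9, Cdh12, Cdh15, Pcdh8, Pcdh9, Pcdh21, Pcdh24, Pcdhac2, Pcdhb7, Pcdhgb1 and Dsp. Replicate letters occur in both groups, with no stated pairing. Deviations from group means correlated at -0.23, -0.19 and -0.03 between same-lettered arrays, so the letters were not used as pairs.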

Additional observations from a re-analysis of the deposited data

How the results depend on the processing

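With the replicate block the Cdh23 difference was 5.24 (adjusted p = 0.0948) and 0 members, 0 partner genes and 0 of all genes passed; with 2 further settings chosen after seeing the data, values raised to a common floor and mutant arrays A and B left out, it was 2.00 and 5.57 and no longer passed. Leaving out each array in turn gave Cdh23 5.01 to 5.63, lost without control B. The count of called members, 1 as reported, was 0 with a filter on all 6 arrays, where Cdh23 was not tested, 0 with the common floor, 0 without mutants A and B, 0 to 1 with an array left out, 2 with each probe fitted on its own (Cdh23 and Pcdh9) and 4 at an adjusted p under 0.1 (Cdh23, Cdh7, Pcdh21 and Pcdha4). The count of called partner genes, 3 as reported, was 5 with normexp and quantile normalization, 5 with the deposited table, 5 with a variance trend and robust estimation, 5 with the common floor, 1 with no filter on dim probes, 9 at an adjusted p under 0.1, 0 without mutants A and B and 0 to 4 with an array left out. The median difference of members, 0.031 as reported, was 0.081 with normexp, 0.136 with no filter on dim probes, 0.19 with a filter on all 6 arrays, 0.094 with the mean of a gene's probes and 0.049 to 0.135 with an array left out. Of 498 values of other named members and of cluster medians under these settings, 478 kept their direction and side of the threshold, and 20 changed sign or moved without a call, among them Celsr1 at 0.41 without mutants A and B, its low arrays, which leaves mutant C alone in its group. Over all genes 587 passed, and between 0 and 790 did at the same threshold under other settings, with 13 without control B, 20 without mutant B and 21 without control C. The cause of these shifts was not tested. Arrays near background and 3 samples a group limit what dim members can show.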
